A study of Homo sapiens with 12 samples.

Results

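The genes described here are 10 components of interleukin-1 signalling: the ligands IL1A, IL1B and IL18, the receptor antagonist IL1RN, the receptor chains IL1R1, IL1R2, IL1RAP and IL1RL1, the adaptor MYD88 and the kinase IRAK1. Each was followed through the probe sets that the platform annotation assigned to that gene alone, which gave 23 probe sets. The probe set of highest mean signal over all arrays served as the main one, and every probe set of IL1R1 and IL1RAP is shown. All 10 genes passed the filter on dim probe sets, among 14061 genes tested of 19775 on the array. The genes were chosen with earlier results of the same arrays known. They were chosen by their role in the pathway and by measured values, the falls of IL1RAP and IL1B in A549 and of IL1R1 in SW780, so those values are given as a description with no test.

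Total RNA was hybridised to 12 Affymetrix GeneChip U133 Plus 2.0 arrays. They came from SW780, an established bladder carcinoma line grown in Leibovitz's L-15 medium, and from A549, an established lung adenocarcinoma line grown in RPMI1640, both with fetal bovine serum and an antibiotic/antimycotic solution. Each line was transfected with siKDM3A, an siRNA against KDM3A, a histone demethylase that removes methyl groups from lysine 9 of histone H3, or with the control siRNAs siEGFP or siFFluc, named for reporter genes. All duplexes were used at 100 nM for 24 h with a lipofectamine reagent, so the control arrays share the transfection, and no untransfected cells were analysed here. This gave 6 groups of 2 arrays: SW780 siKDM3A, SW780 siEGFP, SW780 siFFluc, A549 siKDM3A, A549 siEGFP and A549 siFFluc. Whether the 2 arrays of a group came from separate cultures is not stated in the labels, and p-values therefore measure only the spread between arrays, some or all of which may be technical. The labels also do not say how many duplexes siKDM3A held, and no rescue was analysed here.

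IL1A and IL1B are agonists of the same receptor. They bind IL1R1, the ligand-bound chain recruits IL1RAP, and the pair brings in MYD88 and the IRAK kinases, which leads to activation of NF-kB and of MAP kinases. IL1RN occupies IL1R1 without recruiting IL1RAP, and IL1R2 binds ligand but lacks a signalling tail, so both hold the pathway back. IL1RL1 is the receptor of interleukin-33 and also pairs with IL1RAP, and IL18 is a related cytokine with receptor chains of its own. In epithelial cells the pathway is known for inducing chemokines and other inflammatory genes.

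IL1RAP, IL1R1 and IL1B are the members whose falls with siKDM3A take up most of this account, and their promoters are shown to let a reader compare them. Each window runs from 250 bases before to 50 bases after a RefSeq start on GRCh38.p14, and capitals mark CpG dinucleotides. IL1RAP lies at chr3:190513835-190514134 on the plus strand, and IL1B at chr2:112836730-112837029 on the minus strand. IL1R1 has 4 windows with 4 to 40 CpG, and the one with the most, at chr2:102142496-102142795 on the plus strand, is printed.
IL1RAP: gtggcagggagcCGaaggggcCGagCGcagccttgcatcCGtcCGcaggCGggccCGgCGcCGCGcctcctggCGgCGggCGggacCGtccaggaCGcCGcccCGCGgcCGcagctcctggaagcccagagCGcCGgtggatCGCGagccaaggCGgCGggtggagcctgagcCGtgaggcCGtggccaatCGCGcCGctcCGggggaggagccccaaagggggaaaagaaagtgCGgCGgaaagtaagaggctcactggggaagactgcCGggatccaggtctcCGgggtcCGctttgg
IL1R1: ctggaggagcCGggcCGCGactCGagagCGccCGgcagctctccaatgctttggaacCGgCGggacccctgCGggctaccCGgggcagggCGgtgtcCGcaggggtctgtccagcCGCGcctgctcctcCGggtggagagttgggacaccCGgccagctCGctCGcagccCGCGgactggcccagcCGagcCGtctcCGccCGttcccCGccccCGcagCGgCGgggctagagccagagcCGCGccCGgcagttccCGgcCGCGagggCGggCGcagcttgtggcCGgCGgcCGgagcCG
IL1B: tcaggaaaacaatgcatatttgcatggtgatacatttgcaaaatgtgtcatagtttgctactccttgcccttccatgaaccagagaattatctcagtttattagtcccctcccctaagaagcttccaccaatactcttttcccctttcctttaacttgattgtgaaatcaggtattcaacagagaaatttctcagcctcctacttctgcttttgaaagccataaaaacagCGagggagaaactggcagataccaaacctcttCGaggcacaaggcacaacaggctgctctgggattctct
The IL1RAP window held 36 CpG at 73.7% GC and the printed IL1R1 window 40 CpG at 77.7% GC. The IL1B window held 2 CpG at 42.3% GC, against a median of 14 CpG over all 35116 windows of the table. The IL1RAP window and the printed IL1R1 window were thus CpG-rich and the IL1B window CpG-poor. A search of both strands for the NF-kB consensus, for the AP-1 motif TGANTCA and for TATAAA found none in the 3 printed windows. Of all windows, 5.91% held the NF-kB consensus, 7.71% TGANTCA and 11.5% TATAAA. Of the 17 windows of 9 members, 0 held the NF-kB consensus.

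The values are MAS5 signals, a linear measure of probe set brightness that the authors had scaled to a trimmed mean of 500.1 on every array. The median signal of an array lay between 50.3 and 59.1, and signals near or below it are called dim here. Detection calls and raw scans were not used. KDM3A itself had signals of 196.8 and 223.0 in SW780 siKDM3A, against 359.1 to 432.6 in the control arrays, and 692.5 and 712.4 in A549 siKDM3A, against 1299.7 to 1518.6 (log2 changes of -0.86 ± 0.10 and -0.97 ± 0.10, SE, with limma's adjusted p of 0.000274 and 8.34e-05). Some array properties moved with siKDM3A. The array median was 58.1 and 54.3 in SW780 siKDM3A against 50.3 to 54.2 in its controls, and 53.1 and 51.9 in A549 siKDM3A against 57.4 to 59.1. The 3' to 5' ratio of beta-actin was 1.51 and 1.61 in SW780 siKDM3A against 1.39 to 1.44, and 1.19 and 1.16 in A549 siKDM3A against 1.20 to 1.29. Both properties thus moved in opposite directions in the lines, and their part in the results was not tested. The epithelial markers were high in both lines, with 8 of 8 above a signal of 100 on every SW780 array and 7 or 8 on every A549 array. Of the 9 urothelial markers measured, 5 to 8 were above 100 on the SW780 arrays and 4 on every A549 array. SW780 had strong UPK1A, UPK1B and GATA3 but dim UPK3A, and KRT5 was higher in A549, averaging 173.2 in SW780 controls and 5657 in A549 controls. Of the 7 lung markers measured, 0 to 2 were above 100 on any A549 array. SFTPB averaged 99.9 in A549 siKDM3A and 183.1 in A549 controls, NAPSA 70.1 and 102.6, and NKX2-1 a dim 7.9 and 9.9. PTPRC, the pan-leukocyte marker, did not exceed 24 on any array.

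With siKDM3A, IL1RAP and IL1B were called lower in SW780, and IL1R1 and IL1A in A549, by values that did not serve to choose the genes. The IL1A call in A549 rested on siFFluc, as the change against siEGFP alone was 0.03 ± 0.10 (adjusted p = 0.928 in limma). On the main probe sets none of the 10 genes was called higher by limma in either line, with 0 higher also at an unadjusted p under 0.05. A call means an adjusted p under 0.05 in limma over all 14061 genes, on log2(signal + 16), with siKDM3A set against the mean of both control groups. Over all genes, 6.15% were called lower and 5.68% higher in SW780, and 6.35% lower and 5.33% higher in A549. With the known falls included, the genes past that threshold numbered 3 in SW780 and 4 in A549, counts from which nothing is read, because those falls helped to choose the genes. The median change of the 10 genes was -0.23 in SW780 against 0.03 over all genes, and -0.30 in A549 against -0.02. Both siKDM3A arrays lay below all 4 control arrays for 4 genes in SW780, where 13.3% of all genes did so, and for 5 genes in A549, where 19.9% did. The known falls are also part of these medians and counts, so nothing is read from them either. Under median scaling of the arrays the calls of all genes turned mostly lower in SW780 (1249 lower and 282 higher, against 865 and 798) and mostly higher in A549 (410 lower and 2210 higher, against 893 and 749). That scaling moved the median change of all genes from 0.03 to -0.07 in SW780 and from -0.02 to 0.13 in A549. Under it 4 members in SW780 and 3 in A549 passed the threshold as lower, known falls included, and 0 as higher. These are bulk samples, in which fewer cells that express a gene and less of its RNA per cell cannot be told apart.

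**Figure D1:**
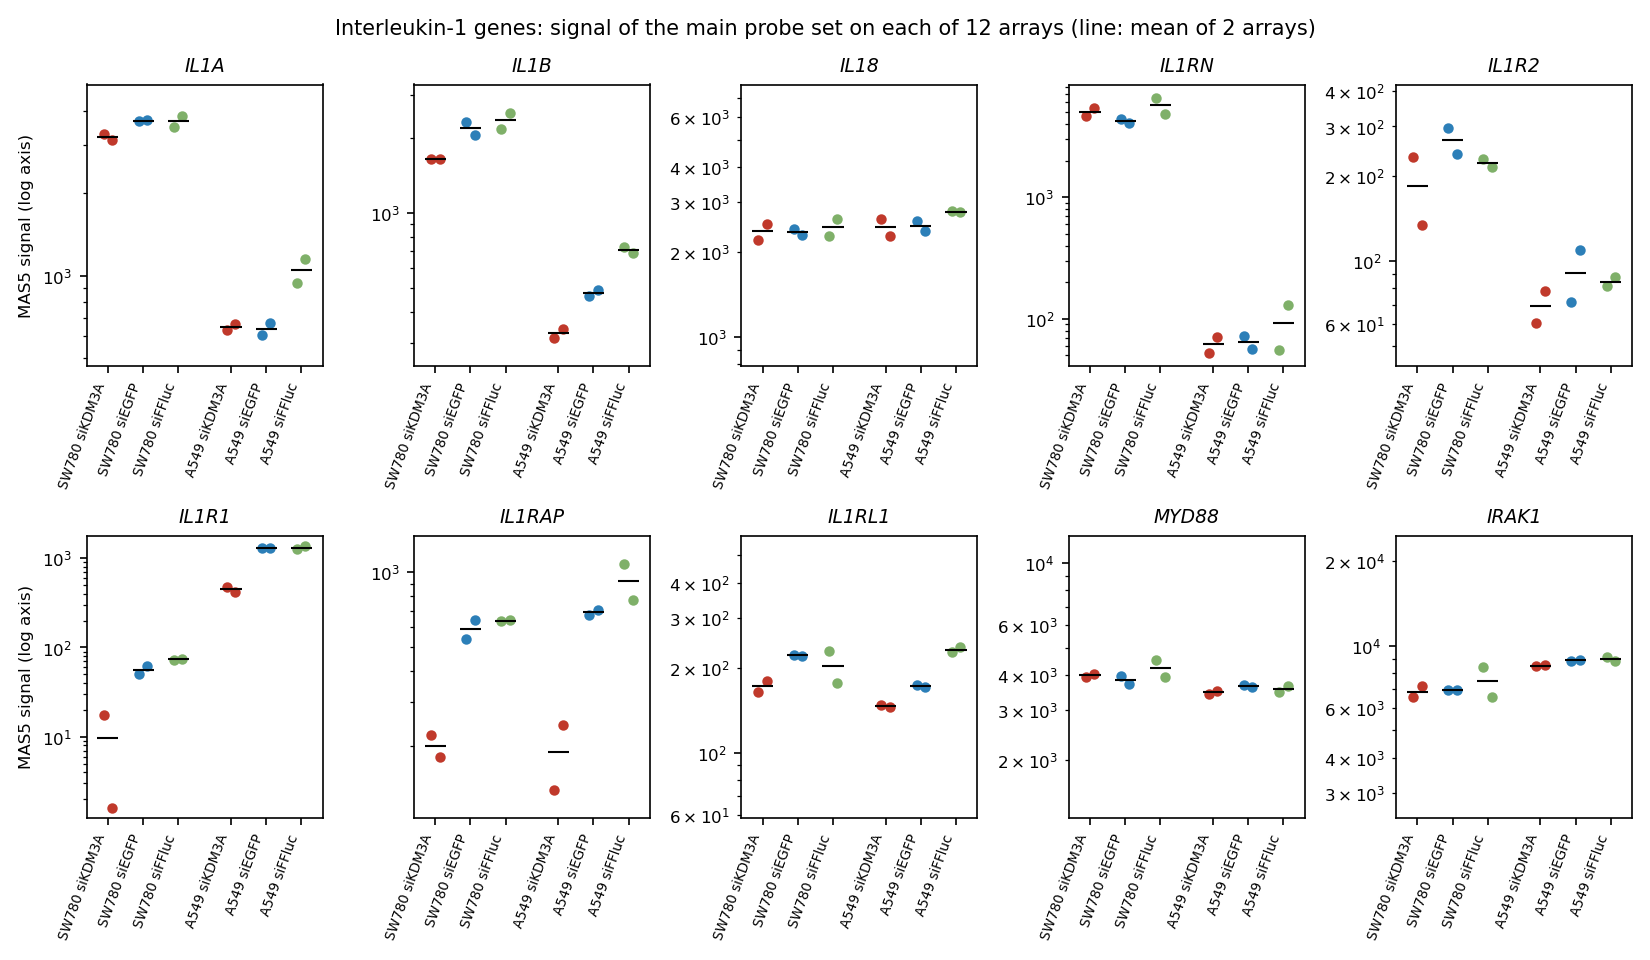
MAS5 signal (log axis) of the main probe set of each gene on all 12 arrays, 1 panel a gene, with points for arrays and lines for the mean of the 2 arrays of a group; axes differ between panels. IL1RAP and IL1R1 show the siKDM3A arrays well below the controls of the same line, while IL18, MYD88 and IRAK1 change by no more than 0.10 on the log2 scale, and IL1RN and IL1R1 separate the lines.

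IL1RAP, the accessory chain that every signalling complex of IL1R1 and IL1RL1 needs, had its lowest signals in the siKDM3A groups of both lines. Its main probe set read 220.7 and 179.3 in SW780 siKDM3A, against 539 and 642.9 in siEGFP and 634.7 and 640.9 in siFFluc. In A549 it read 132.9 and 243.1 in siKDM3A, against 674.5 and 704.2 in siEGFP and 1076.7 and 771.9 in siFFluc. In both lines the siKDM3A arrays lay apart from all controls, without overlap, and the 2 siKDM3A groups overlapped each other at the bottom of the order. The fall in SW780, which did not serve to choose the gene, was -1.55 ± 0.20 (SE, adjusted p = 0.000389) and left 32.6% of the control signal. It ranked 12 of 14061 genes from the largest fall. In A549 the change was -2.04 ± 0.20, a description, which left 23.3% of the control signal and ranked 6.

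The second probe set of IL1RAP behaved differently. It read 173 and 194.4 in SW780 siKDM3A, against 86.1 to 190.4 in the controls, and 246.3 and 214.3 in A549 siKDM3A, against 181.9 to 279.5. The groups overlapped in both lines. In a fit over all 32768 probe sets past the filter its change was 0.34 ± 0.23 in SW780 (95% interval -0.15 to 0.83, adjusted p = 0.432) and 0.05 ± 0.23 in A549 (adjusted p = 0.942). In the same fit the main probe set changed by -1.55 in SW780 (95% interval -1.97 to -1.13), so the 2 intervals do not overlap. The log2 difference of the main probe set over the second was 0.32 and -0.11 in SW780 siKDM3A against 1.67 to 2.67 in its controls, and -0.82 and 0.17 in A549 siKDM3A against 1.29 to 2.47. The fall of IL1RAP was thus measured on its main probe set alone. Which transcripts each probe set reads was not analysed here.

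IL1R1, the ligand-binding chain of the signalling receptor, was lower with siKDM3A in both lines at very different levels. In A549 its main probe set read 479.9 and 422.5 in siKDM3A, against 1303.7 and 1304.8 in siEGFP and 1260 and 1363.8 in siFFluc. The 4 controls lay close together and the siKDM3A arrays far below them. The fall was -1.51 ± 0.22 (SE, adjusted p = 0.000712), with 34.5% of the control signal remaining, and ranked 25 from the largest fall of 14061. With a pseudocount of 1 in place of 16 this call ended, at an adjusted p of 0.0938. The change was then still -1.54, but its SE rose from 0.22 to 0.54. The fit shares 1 estimate of the spread over the 6 groups, among them the dim SW780 signals given below. In SW780 the signals were 17.7 and 1.6 in siKDM3A, against 51.1 and 61.9 in siEGFP and 72 and 75 in siFFluc. All 6 SW780 values were dim, and the siKDM3A arrays again lay below every control. That change was -1.72 ± 0.22, a description, and it ran from -3.23 with a pseudocount of 1 to -0.81 with a pseudocount of 64, so its size in SW780 is set largely by the pseudocount. The siKDM3A arrays of SW780 placed IL1R1 at the 2.4th and 27.6th percentiles of all probe sets, against the 50th to 56.5th in controls.

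The other IL1R1 probe set fell under the filter and was not tested. It read 9.4 and 12.8 in SW780 siKDM3A, against 3.4 to 41.4 in controls, and 34.9 and 45.6 in A549 siKDM3A, against 11.3 to 62.7. These values were dim and the groups overlapped in both lines.

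**Figure D2:**
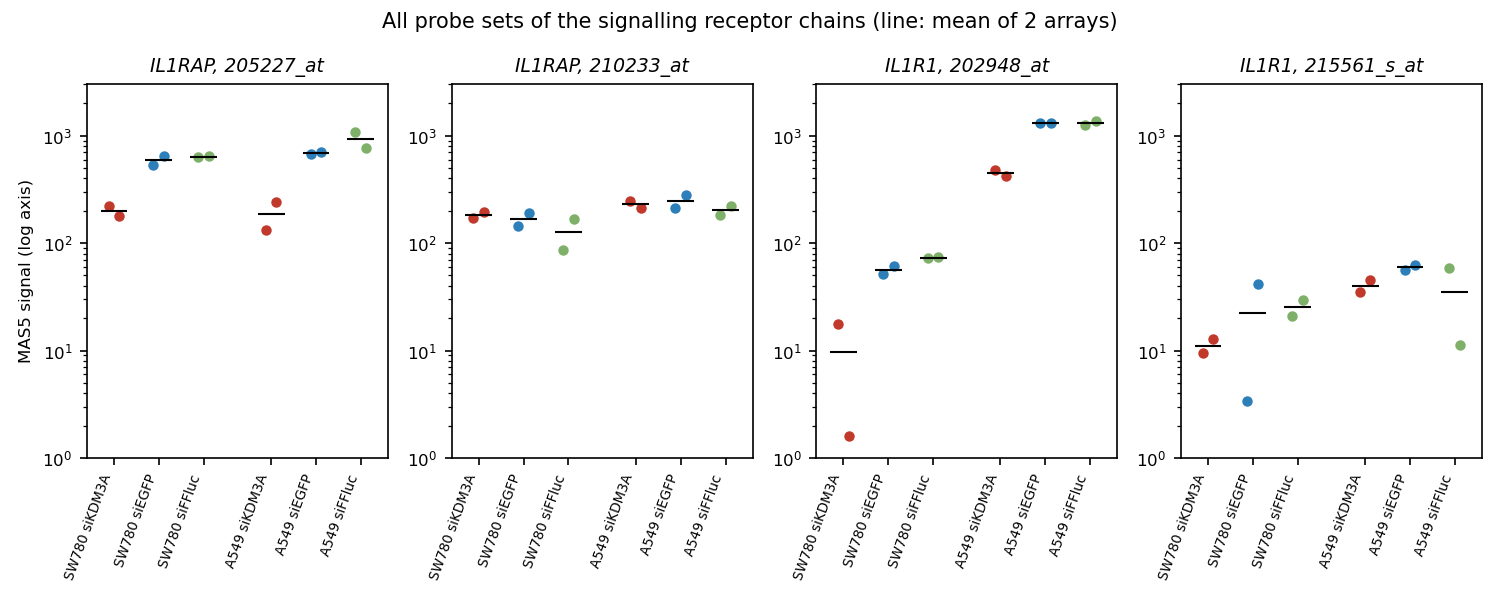
MAS5 signal (log axis, the same in all panels) of both IL1RAP and both IL1R1 probe sets on 12 arrays, with points for arrays and lines for the mean of the 2 arrays of a group. The siKDM3A points of both main probe sets lie below their controls in both lines, whereas those of both second probe sets overlap them.

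IL1RL1, the interleukin-33 receptor chain, was low throughout, at 145.2 to 236.6 on the 12 arrays. It read 164.5 and 179.1 in SW780 siKDM3A, against 176.8 to 230 in controls, and 146.9 and 145.2 in A549 siKDM3A, against 171.2 to 236.6. The A549 siKDM3A arrays lay below all controls, but neither line passed the threshold, with changes of -0.28 ± 0.16 in SW780 (adjusted p = 0.301) and -0.42 ± 0.16 in A549 (adjusted p = 0.111). These values are of the main probe set, and the others did not fall in SW780. Those past the filter changed by 0.007 ± 0.21 and 0.46 ± 0.29 in SW780, and by -0.52 ± 0.21 and -0.35 ± 0.29 in A549, without a call. The remaining one, dim and under the filter, lay above all SW780 controls, at 16.2 and 13.1 against 6.4 to 9. IL1R2, the decoy receptor, read 233.6 and 133.9 in SW780 siKDM3A, against 214.9 to 297.2 in controls, and 60.1 and 78.5 in A549 siKDM3A, against 71.5 to 109.7. Its groups overlapped, and the changes of -0.42 ± 0.24 in SW780 (95% interval -0.95 to 0.10) and -0.28 ± 0.24 in A549 (-0.80 to 0.25) did not pass the threshold.

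Among the ligands, IL1B was lower with siKDM3A in both lines on both of its probe sets. The main one read 1658.8 and 1651.5 in SW780 siKDM3A, against 2324.9 and 2060.3 in siEGFP and 2188 and 2535.5 in siFFluc. In A549 it read 313.1 and 341.3 in siKDM3A, against 463.8 and 491.9 in siEGFP and 730.4 and 688.1 in siFFluc. The siKDM3A arrays lay below all controls in both lines, and in A549 the 2 control siRNAs also lay apart. The fall in SW780 was -0.45 ± 0.09 (SE, adjusted p = 0.0059) and left 72.7% of the control signal. Leaving out either SW780 siKDM3A array ended that call, at adjusted p values of 0.0531 and 0.0556 with changes of -0.46 and -0.45. In A549 the change was -0.80 ± 0.09, a description, and left 55.1%. It was -0.53 against siEGFP alone and -1.08 against siFFluc alone. The second probe set changed by -0.35 ± 0.09 in SW780 (adjusted p = 0.0267 over all probe sets) and by -0.60 ± 0.09 in A549, also a description.

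IL1A depended on which control it was set against. In A549 it read 633.7 and 665.5 in siKDM3A, against 605 and 672.6 in siEGFP and 941.4 and 1150.7 in siFFluc. The siKDM3A arrays fell within the range of siEGFP, and siFFluc was higher than both. Against both controls the change was -0.32 ± 0.09 (adjusted p = 0.031), but against siEGFP alone it was 0.03 ± 0.10 (adjusted p = 0.928), so the call in A549 rests on siFFluc. It passed the threshold in 11 of 21 alternative settings. In SW780 IL1A read 3300.6 and 3139.6 in siKDM3A, against 3502.1 to 3841.7 in controls, without overlap, but the change of -0.19 ± 0.09 did not pass the threshold (adjusted p = 0.185). The other IL1A probe set was low, at 28.8 to 120.4 over all arrays, and showed no call in either line.

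In A549 the signals of the leukocyte, the fibroblast and endothelial, and the lung marker lists moved the same way as the members that fell there. The summed signal of the 8 leukocyte markers measured was 281.9 and 304.9 in siKDM3A arrays, against 411.9 to 427.3 in controls, with 0 to 2 of the 8 above a signal of 100 on any array. That of the 9 fibroblast and endothelial markers was 1279.6 and 1066, against 1499.7 to 1565.4, and that of the 7 lung markers 335.9 and 246.9, against 373 to 482.5. In SW780 siKDM3A the leukocyte sum was 342.2 and 247, against 205 to 289.6 in controls. The fibroblast and endothelial sum was 905.1 and 964, against 792.1 to 1194.8. The lung sum was 379.4 and 296.1, against 318.8 to 472, and for all 3 lists the SW780 groups overlapped. PTPRC stayed dim in both lines, and the part of these lists in the results was not tested.

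The remaining members did not pass the threshold in either line. IL18 read 2211.1 and 2516.9 in SW780 siKDM3A, against 2271.1 to 2619.6 in controls, and 2624.1 and 2284.4 in A549 siKDM3A, against 2372.5 to 2780.3. Its changes were -0.02 (95% interval -0.20 to 0.16) in SW780 and -0.10 (-0.28 to 0.08) in A549. MYD88, the adaptor that links the receptor pair to the IRAK kinases, read 3934.8 and 4038.4 in SW780 siKDM3A, against 3718.6 to 4511.6, and 3438.1 and 3517.2 in A549 siKDM3A, against 3477.2 to 3699.8. Both groups overlapped their controls, and its 95% intervals were -0.15 to 0.13 in SW780 and -0.20 to 0.09 in A549. IRAK1 read 6586.4 and 7161.2 in SW780 siKDM3A, against 6586.8 to 8429.5, and 8447.7 and 8518.3 in A549 siKDM3A, against 8802.5 to 9094.7. Although the A549 siKDM3A arrays lay below all controls for IRAK1, the change was -0.07 in both lines, with intervals of -0.24 to 0.11 in SW780 and -0.25 to 0.11 in A549. IL1RN, the antagonist, read 4637.5 and 5442.9 in SW780 siKDM3A, against 4082 to 6481.9, and 52.8 and 70.3 in A549 siKDM3A, against 55.5 to 129.2. The groups overlapped in both lines, and its intervals were wide, at -0.44 to 0.53 in SW780 and -0.72 to 0.25 in A549. Another IL1RN probe set, dim in A549, averaged 50.65 in A549 siKDM3A, above all controls there, at 25.9 to 44.2. Its change was 0.37 (95% interval 0.02 to 0.73, adjusted p = 0.208 in limma over all probe sets). The remaining IL1RN probe sets overlapped their controls in both lines.

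**Figure D3:**
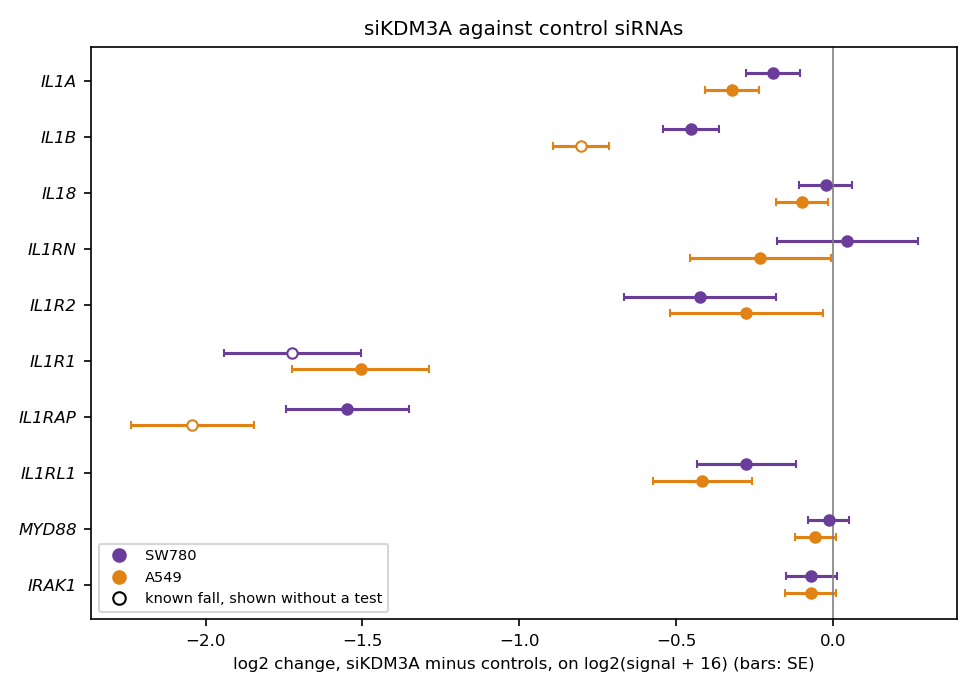
Change with siKDM3A on the log2(signal + 16) scale for each gene (points, with SE bars) in SW780 and A549, 2 siKDM3A arrays against 4 control arrays a line; open points mark the known falls, shown without a test. IL1RAP and IL1R1 lie between -1.5 and -2.1 in both lines, IL1B and IL1A closer to 0, and IL18, MYD88 and IRAK1 at -0.10 or nearer to 0.

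The size of the siKDM3A change did not pass the test of a difference between lines for any of the 10 genes. Over all genes 2.75% were called in either direction, and at an unadjusted p under 0.05 there was 1 member, IL1B, a description. The difference, SW780 minus A549, was 0.49 ± 0.28 for IL1RAP, 0.35 ± 0.13 for IL1B and -0.22 ± 0.31 for IL1R1, also descriptions. For IL1A it was 0.13 ± 0.12 (95% interval -0.14 to 0.39, adjusted p = 0.624). The widest interval among the other genes was that of IL1R2, at -0.89 to 0.60.

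The ligands IL1A and IL1B differed between siEGFP and siFFluc in A549. With siEGFP against siFFluc, IL1A changed by -0.69 ± 0.10 (SE, adjusted p = 0.00156) and IL1B by -0.55 ± 0.10 (adjusted p = 0.00893). These were 2 of the 10 genes lower in limma and 0 higher (0 also at an unadjusted p under 0.05), where 1.43% of all genes were lower and 1.49% higher. The second IL1B probe set changed by -0.30 ± 0.10 and did not pass the threshold (adjusted p = 0.232). Leaving out A549 siEGFP replicate 1 or A549 siFFluc replicate 1 ended the IL1B call, at adjusted p values of 0.071 and 0.0992. In SW780 limma called 0 of the 10 genes between the controls, and 0 at an unadjusted p under 0.05, where 5.57% of all genes were called in either direction. Without SW780 siFFluc replicate 2 there was 1 call, IRAK1 at -0.28 (adjusted p = 0.0224). IL1RAP and IL1R1 were called between the controls in neither line, with changes of -0.11 ± 0.23 and -0.31 ± 0.25 in SW780 and -0.40 ± 0.23 and -0.01 ± 0.25 in A549.

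Between the control arrays of the lines, whose growth media also differed and cannot be told apart from the line, SW780 had higher IL1A, IL1B, IL1RN and IL1R2 than A549, and lower IL1R1. In all, 5 of the 10 genes were higher in SW780 and 2 lower, where 30.1% of all genes were higher and 38.8% lower, so that calls in either direction were about as common among the members as among all genes. IL1RN, at 4082 to 6481.9 in SW780 controls and a low 55.5 to 129.2 in A549 controls, differed by 5.75 ± 0.18 (SE, adjusted p = 1.03e-11). Because the A549 signals were low, that size depends on the pseudocount, with 6.02 at a pseudocount of 1 and 5.14 at 64. Of the other IL1RN probe sets past the filter, 2 were also higher in SW780, by 3.81 and 4.78, with mostly dim A549 signals. The remaining one passed only through its SW780 signals and is not counted here. IL1A was higher by 2.15 ± 0.07 (adjusted p = 1.4e-11), although its other probe set, of low signal, differed by only 0.33 ± 0.31 (adjusted p = 0.389). IL1B was higher by 1.93 ± 0.07 (adjusted p = 5.02e-11) and by 1.59 on its other probe set, and IL1R2 by 1.34 ± 0.20 (adjusted p = 4.34e-05) and by 1.47.

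IL1R1 stood on the other side, at 51.1 to 75 in SW780 controls and 1260 to 1363.8 in A549 controls, a difference of -4.04 ± 0.18 (adjusted p = 2.63e-10). The SW780 signals were dim, and the difference was -4.32 with a pseudocount of 1 and -3.41 with 64. The A549 siKDM3A arrays, at 422.5 and 479.9, still lay above every SW780 array. IRAK1 was lower in SW780 by 0.31 ± 0.07 on the log2 scale (adjusted p = 0.00106), a call that median scaling ended. Its second probe set, of lower signal, differed by -0.74 ± 0.15 (adjusted p = 0.000808 in limma over all probe sets). MYD88 was higher by 0.15 ± 0.05 (adjusted p = 0.0215), a call that held in 14 of 21 alternative settings. IL1RAP did not pass the threshold on its main probe set (-0.36 ± 0.16, adjusted p = 0.06), while its second probe set was lower in SW780 (-0.59 ± 0.19, adjusted p = 0.0136). IL18 (-0.13, 95% interval -0.28 to 0.02) and IL1RL1 (0.07, -0.21 to 0.35) did not pass it either.

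**Figure D4:**
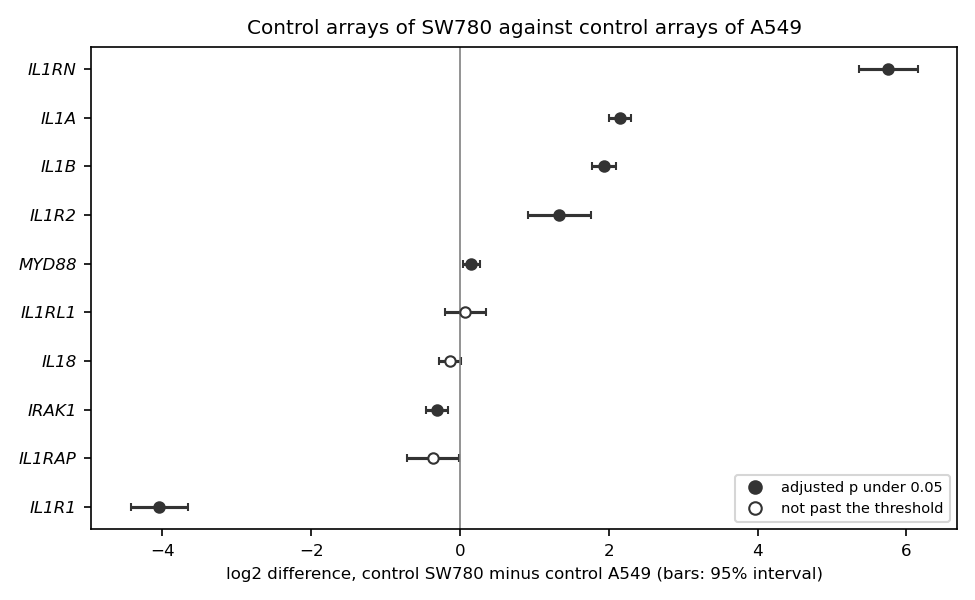
Difference of control arrays, SW780 minus A549, on the log2(signal + 16) scale for each gene (points, with 95% intervals, 4 control arrays a line); filled points passed an adjusted p under 0.05. IL1RN, IL1A, IL1B and IL1R2 lie to the right at 1.34 to 5.75, and IL1R1 alone lies far to the left at -4.04.

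Over the 12 arrays the signals of IL1A and IL1B on the log2 scale correlated at a Pearson r of 0.98, and those of IL1RAP with IL1R1 at 0.43, over arrays that share 2 lines and 6 groups. Of all other genes tested, those most like IL1RAP were MTCL2 (r = 0.97), TMED8 (0.96) and WBP2 (0.95). WBP2 averaged 281.4 in siKDM3A, 675.7 in siEGFP and 956.2 in siFFluc of SW780, and 310.3, 851.5 and 987.65 in the same order of A549. Most like IL1R1 were ACO1, a cytosolic aconitase, SLC35B4, a nucleotide sugar transporter, and HIP1, an endocytic adaptor, at r values of 0.992 to 0.996. SLC35B4 averaged 383.8, 690.25 and 795.2 in SW780 and 2153.1, 3956.4 and 4187 in A549, again in the order siKDM3A, siEGFP and siFFluc. IL1B was most like MSMO1, an enzyme of sterol synthesis, ZNF264 and AMMECR1, each at 0.99. These genes were picked for their likeness, so their agreement is a description.

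Around these 10 genes, the other parts of the pathway were read from lists written with earlier results known, so the values of their genes are a description. Of 14 other ligands and receptors of the family, 6 were tested, and limma called 0 in either line with siKDM3A, with 1 lower in SW780 and 1 higher in A549 at an unadjusted p under 0.05. With a pseudocount of 64 or under median scaling 1 was called higher in A549, and without the filter 1 lower. SIGIRR, a receptor that dampens signalling, stood near the threshold in A549, at 0.36 ± 0.11 (adjusted p = 0.0532), and passed it under median scaling (adjusted p = 0.0156). Leaving out either SW780 siFFluc array gave 1 call in A549, higher. The lines differed for 4 of them in control arrays, 3 lower and 1 higher in SW780, where 38.8% of all genes were lower and 30.1% higher. Nothing is read from that count. SIGIRR was at 218.3 to 289.6 in SW780 controls and 1745.7 to 1943.3 in A549 controls (-2.77 ± 0.09, adjusted p = 1.45e-11). Of 16 genes of processing and release, 12 were tested. In SW780 siKDM3A the calpains CAPN1 (-0.59 ± 0.13, adjusted p = 0.00951) and CAPN2 (-0.25 ± 0.07, adjusted p = 0.0268) were lower and the DNA sensor AIM2 higher (0.41 ± 0.10, adjusted p = 0.0186), and in A549 siKDM3A only CARD16, an inhibitor of caspase-1 activation, was called (0.73 ± 0.18, adjusted p = 0.019). CARD16 was dim, at 57.7 ± 7.0 in A549 siKDM3A and 29.4 ± 10.98 in A549 controls (SD, n = 2 and 4 arrays). Leaving out either siKDM3A array of a line ended every one of these calls in that line, and leaving out SW780 siEGFP replicate 1 ended that of CAPN2 (highest adjusted p 0.219) and SW780 siEGFP replicate 2 that of AIM2 (highest 0.115). In A549 the list gave 0 calls with siEGFP as the only control, 2 with quantile normalization and 3 under median scaling, all higher. CAPN2 also differed between the controls of SW780 (-0.32 ± 0.08, adjusted p = 0.0277), and the AIM2 rise ended under median scaling (adjusted p = 0.0762). In control arrays 7 of the 12 were higher in SW780 and 0 lower (0 also at an unadjusted p under 0.05 in limma), where 30.1% of all genes were higher and 38.8% lower, led by CASP1, the protease that cleaves IL1B and IL18, at 3112.5 to 4354.3 in SW780 and 376.3 to 477.1 in A549 (3.14 ± 0.09, adjusted p = 3e-12).

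Of 23 signalling genes below the receptor, 21 were tested. In SW780 siKDM3A limma called 0 lower (2 at an unadjusted p under 0.05) and 1 higher, the kinase MAP3K3, and in A549 siKDM3A 5 were lower and 2 higher. Over all genes 6.15% were lower and 5.68% higher in SW780, and 6.35% lower and 5.33% higher in A549. Leaving out either A549 siKDM3A array gave 2 lower and 0 higher in A549, and leaving out single arrays gave 0 to 3 calls in SW780. IRAK2, the kinase that acts beside IRAK1, averaged 2362 ± 124 in SW780 siKDM3A and 2071 ± 275 in its controls, and 1314 ± 22.4 in A549 siKDM3A and 2432 ± 474 in its controls (SD, n = 2 and 4 arrays). Its change in A549 was -0.86 ± 0.09 (adjusted p = 8.64e-05), and its difference between lines, SW780 minus A549, was 1.06 ± 0.13 (adjusted p = 0.00308). IRAK2 also differed between the A549 controls, by -0.48 ± 0.11 with siEGFP against siFFluc (adjusted p = 0.0267). TAB3, a partner of the kinase MAP3K7, and REL, an NF-kB subunit, fell in A549 by 0.55 and 0.46 on the log2 scale (adjusted p = 0.000491 and 0.00595). The calls of IRAK2 and TAB3 in A549 held with each of the 12 arrays left out in turn, while that of REL ended without either A549 siKDM3A array (highest adjusted p 0.0706). MAP3K3 rose by 0.58 ± 0.15 in SW780 (adjusted p = 0.0252) and 0.78 ± 0.15 in A549 (adjusted p = 0.00495), but siEGFP and siFFluc differed by more, at 1.20 ± 0.17 in SW780 and 1.86 ± 0.17 in A549. The SW780 rise did not pass the threshold under median scaling (adjusted p = 0.0586), without SW780 siEGFP replicate 1 or without SW780 siKDM3A replicate 2 (highest adjusted p 0.239), nor the A549 rise without either A549 siKDM3A array (highest 0.0646).

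Of 24 genes known to be induced by interleukin-1 in epithelial cells, 18 were tested. In SW780 siKDM3A 6 were lower and 2 higher, where 6.15% of all genes were lower and 5.68% higher. Their median change was -0.21 against 0.03 over all genes. In A549 siKDM3A 10 were lower and 0 higher (0 also at an unadjusted p under 0.05 in limma), where 6.35% of all genes were lower and 5.33% higher. The median there was -0.57 against -0.02. As the list was written with earlier results known, these counts and medians are a description, and so are the values of its single genes below. Leaving out either siKDM3A array gave 2 lower and 1 higher in SW780 and 6 lower and 0 higher in A549, and the SW780 count was also 5 without SW780 siEGFP replicate 2 or SW780 siFFluc replicate 1. The chemokine CXCL8 averaged 2591 ± 82.7 in SW780 siKDM3A and 3550 ± 722 in controls, and 4348 ± 53.4 in A549 siKDM3A and 10406 ± 4116 in controls (SD, n = 2 and 4 arrays). It fell by 0.43 ± 0.10 in SW780 (adjusted p = 0.0165) and by 1.17 ± 0.10 in A549 (adjusted p = 1.84e-05) on the log2 scale. The SW780 call of CXCL8 ended without either SW780 siKDM3A array or SW780 siEGFP replicate 1 (highest adjusted p 0.131). The complement component C3 fell by 0.78 ± 0.10 in SW780 (adjusted p = 0.000371) and by 0.60 ± 0.10 in A549 (adjusted p = 0.0017). The collagenase MMP1 fell in SW780 by 0.53 ± 0.09 (adjusted p = 0.0028), and NFKBIZ, a nuclear regulator of NF-kB, rose there by 0.32 ± 0.08 (adjusted p = 0.0177), a rise that ended under median scaling (adjusted p = 0.141) and without SW780 siKDM3A replicate 2 (adjusted p = 0.213). MMP1 averaged 187.35 ± 7.1 in SW780 siKDM3A (SD), against 187.9 to 397.9 in its controls, so the lowest control lay within that spread. Its controls differed by 0.79 ± 0.11 (SE), siEGFP being the higher, which is more than the fall of 0.53. How far MMP1 fell, and whether a fall shows at all, thus depends on the control used. Leaving out single arrays does not show that dependence. In A549 PTGS2, the prostaglandin synthase, fell by 1.01 ± 0.12 (adjusted p = 0.000153) and the chemokine CXCL3 by 1.10 ± 0.13 (adjusted p = 0.000218). PTGS2 also differed between the A549 controls, by -0.65 ± 0.13 with siEGFP against siFFluc (adjusted p = 0.0192 in limma). The size of the PTGS2 fall thus depends on the control used as well. The calls of C3 in both lines, of MMP1 in SW780 and of CXCL8, PTGS2 and CXCL3 in A549 held with each of the 12 arrays left out in turn.

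As with IL1A, the control siRNAs bore on these counts. In A549 5 of the 18 induced genes were lower with siEGFP than with siFFluc, among them CXCL8 (a log2 change of -0.997 ± 0.12, adjusted p = 0.00029), and 0 were higher (1 at an unadjusted p under 0.05 in limma). Over all genes 1.43% were lower and 1.49% higher there. In SW780 1 was lower and 2 higher, the 2 being MMP1 (0.79 ± 0.11, adjusted p = 0.00148) and CXCL8 (0.45 ± 0.12, adjusted p = 0.0449), where 5.57% of all genes were called in either direction. With siEGFP as the only control, siKDM3A gave 3 lower and 1 higher in SW780, against 6 and 2, and 4 lower and 0 higher in A549, against 10 and 0. For 5 of the 18 the change differed between the lines, where 2.75% of all genes were called in either direction. All 5 were higher in SW780 than in A549, with IL6 at 1.36 ± 0.21 (adjusted p = 0.00702) and PTGS2 at 1.02 ± 0.17 (adjusted p = 0.0098). Among the 5 was CXCL3, at 0.87 ± 0.19 (adjusted p = 0.0339 in limma). CXCL3 was dim in SW780, at 36.7 ± 11.6 in siKDM3A and 45.4 ± 6.4 in controls (SD), so a fall there could hardly show. With siEGFP as the only control the count of genes that differed between the lines was 0 higher and 1 lower. Under median scaling it was 2 higher and 1 lower, and without a trend in the prior variance 1 higher and 0 lower. It was 2 without A549 siFFluc replicate 1 or A549 siKDM3A replicate 1, 1 without SW780 siKDM3A replicate 2 and 0 without A549 siKDM3A replicate 2, where IL6 stood at an adjusted p of 0.0503.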

How the data were processed

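Expression was measured on 12 Affymetrix arrays. The deposited values are signal intensities on a linear scale, made with MAS5 per the submitters' processing notes, which give no version; the annotation of the platform dates from 2016. Of 54613 probe sets left without controls, 41091 carried 1 gene symbol, 1801 several and 11721 none, and 41037 were renamed through RefSeq gene numbers.

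Probe sets with a mean signal of at least 33.6, the 40th percentile, were kept (32768), and the highest per gene was tested as log2(signal + 16). Group means of 6 groups were fitted in limma 3.58.1 (R 4.3.3, trended prior variance), with Benjamini-Hochberg adjustment over 14061 genes and a threshold of 0.05; the fit was tested on simulated data. Figures were drawn with matplotlib 3.10.9. Array number limits precision.

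Members and gene lists were chosen with earlier results of these data known. All members are named, up to 4 genes of smallest p per list and comparison, and the 3 genes most correlated with IL1B, IL1R1 and IL1RAP. Alternatives were other pseudocounts, no filter, other scalings, no trend, a replicate block, single controls and each array left out. Applying them to the lists was chosen after seeing the data.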

Additional observations from a re-analysis of the deposited data

Results flagged for a closer look

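IL1RAP on the 4 control arrays of SW780 was singled out because 1 array lay apart from the others. SW780 siEGFP replicate 1 read 539, while the other 3 control arrays lay between 634.7 and 642.9. The gap to the nearest of them, divided by the whole range, was 0.921, above Dixon's 95% critical value for 4 samples. There were 20 such sets of 4 control arrays, and chance gives about 1 in 20. The siKDM3A arrays, at 220.7 and 179.3, lay far below all 4, and the fall of IL1RAP in SW780 passed the threshold in 21 of 21 alternative settings, among them the one without that array.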

How the results depend on the processing

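Recounts of the called members stayed within 1.5 times the main count in 119 cases and moved further in 3. The 3 were between control siRNAs: leaving out single arrays gave 1 to 2 calls in A549 and 0 to 1 in SW780. IL1A in A549 was the only called change that reversed, to 0.0251 with siEGFP as the only control. IL1RAP in SW780 ran from -1.69 to -1.36 (adjusted p 0.000127 to 0.0112) and IL1R1 in A549 from -1.59 to -1.35. Samples with the same replicate number did not deviate together (correlations of -0.03 to 0.02), and with a replicate block the calls numbered 4 in A549, 3 in SW780, 0 for the difference, 2 and 0 between controls in A549 and SW780, and 7 between lines, as without it.

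The calls over all genes moved more. They were 1642 in A549 (879 without a trend, 2620 under median scaling, 524 to 2379 leaving out an array) and 1663 in SW780 (876 without a trend, 871 with siEGFP alone, 737 to 2605). The difference between lines called 387 (77 to 1934, and 41 to 951 leaving out an array). Between controls there were 410 in A549 (236 without a trend, 176 to 583) and 783 in SW780 (223 to 927, and 184 to 1928). Causes were not tested. Low signals limit IL1R1 in SW780 and IL1RN in A549.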
